A study of Homo sapiens with 6 samples.

Results

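The centromere, HJURP and kinetochore genes were compared between MDA-MB-231 cells that stably carried a control hairpin (Sh-NC) and the same cells with a hairpin against YAP1 (Sh-YAP1). MDA-MB-231 is an established human triple-negative breast cancer (TNBC) line. Both groups were labelled day 3 with no treatment, the genotype of Sh-NC as WT and that of Sh-YAP1 as YAP1 knockdown, and each group had 3 RNA-sequencing libraries numbered 1 to 3. The labels do not say which hairpin sequence was used or whether the 3 libraries of a group came from separate cultures, so the p-values measure only the spread between these libraries. The 36 genes were chosen by symbol for their known roles in CENPA loading (6 genes), the inner kinetochore (13), the outer kinetochore (10), the corona and the RZZ complex (4) and the SKA complex (3). Expression was given as FPKM, which scales the fragments of a transcript to its length and to the size of the library, and a gene's value was the sum of its transcript entries. All 36 averaged 0.5 FPKM or more over the 6 libraries, the filter that left 14770 genes to be tested.

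A centromere is marked by nucleosomes that hold CENPA, a variant of histone H3, and the chaperone HJURP brings new CENPA to it after mitosis. MIS18A and OIP5 (also called MIS18B) belong to the Mis18 complex, which prepares the centromere for HJURP, and RBBP4 and RBBP7 are histone-binding partners in CENPA assembly. The inner kinetochore, or CCAN, is built on CENPA chromatin, the outer KMN network of KNL1, MIS12 and NDC80 complexes holds the microtubules, the RZZ complex of ROD, ZW10 and ZWILCH carries checkpoint and dynein proteins, and the SKA complex tracks microtubule ends. Many of these genes are transcribed late in the cell cycle, and their promoters are known for CCAAT boxes, which bind NF-Y, and for CHR and E2F elements, through which the DREAM and E2F complexes act.

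In this cell line 2 of the 36 genes passed the test (5.56%, beside 3.38% of all genes). MIS18A, a subunit of the complex that licenses centromeres for new CENPA, fell to a ratio of 0.401 of its Sh-NC mean. ZW10, a subunit of the RZZ complex, rose to a ratio of 2.00 in the sum of its transcript entries. Part of its Sh-YAP1 sum came from an entry listed at 0 in all Sh-NC libraries. A sum without that entry, chosen after the values were seen, can only lower Sh-YAP1, and its log2 fold change was 0.49 in place of 0.91 (adjusted p = 0.324, limma). For the full sum, adjusted p was just above 0.05 without Sh-NC 2 or without Sh-YAP1 2, with log2 fold changes of 0.92 and 0.90. HJURP and CENPA lay lower in Sh-YAP1 by 0.19 and 0.18 on the log2(FPKM + 1) scale, and neither passed the test. The other 32 genes had log2 fold changes between -0.35 and 0.40.

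The upstream sequences of HJURP, CENPA and ZW10 are shown because HJURP and CENPA are the chaperone and histone at the centre of the gene set and ZW10 was called. They are from RefSeq on GRCh38.p14, 5′ to 3′ on the gene's strand, without bases that GENCODE 29 places in an exon. Capitals mark exact matches, on either strand, to the CCAAT box (CCAAT, or ATTGG on the other strand), the CHR element (TTTGAA or TTCAAA) and an E2F element (GGCGGGAA or TTCCCGCC). The HJURP stretch is chr2:233854567-233854785 on the minus strand, 219 bases with 31 bases between its end and the RefSeq start. The CENPA stretch is chr2:26785806-26785996 on the plus strand, 191 bases that end 59 bases before the start. The ZW10 stretch is chr11:113773812-113773942 on the minus strand, 131 bases that end 119 bases before the start.
HJURP: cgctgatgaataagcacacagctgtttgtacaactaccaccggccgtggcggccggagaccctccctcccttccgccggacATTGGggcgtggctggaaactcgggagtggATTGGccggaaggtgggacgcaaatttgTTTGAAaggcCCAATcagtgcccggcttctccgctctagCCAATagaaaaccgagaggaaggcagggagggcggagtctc
CENPA: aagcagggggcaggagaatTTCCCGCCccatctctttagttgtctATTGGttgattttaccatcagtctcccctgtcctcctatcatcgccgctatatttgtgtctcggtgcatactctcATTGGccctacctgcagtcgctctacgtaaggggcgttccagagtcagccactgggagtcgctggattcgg
ZW10: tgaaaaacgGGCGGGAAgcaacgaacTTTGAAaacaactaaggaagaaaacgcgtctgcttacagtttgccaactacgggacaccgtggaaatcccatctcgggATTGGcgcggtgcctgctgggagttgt

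HJURP holds 4 CCAAT boxes and 1 CHR element in this stretch, CENPA 2 CCAAT boxes and 1 E2F element, and ZW10 1 match of each kind. The CHR element of CENPA lies between the stretch shown and the RefSeq start. RefSeq promoters were matched for 31 of the 36 genes, and those of MIS18A, CENPH, CENPL, CENPM and KNL1 were not matched. In the 250 bases before the start, CCAAT on either strand was found for 20 of the 31 genes (64.5%) and for 37.0% of all 27305 genes with a promoter. A gene was counted if any promoter listed for it matched. GGCGGGAA was found in 6 of 31 (19.4%) and in 3.31% of all. TTTGAA was found in 6 of 31 (19.4%) against 16.1%, and GGAATG, the letters that TEAD factors, the DNA-binding partners of YAP1, prefer, in 5 of 31 (16.1%) against 14.3%. The 5 genes with GGAATG were CENPK, CENPQ, NUF2, CENPE and CENPF. Matches to different motifs were allowed to overlap, both strands were searched, and the shares are descriptions of these windows with no test.

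YAP1, the targeted gene, was at 28.1, 26.2 and 22.9 FPKM in Sh-NC and at 3.35, 2.67 and 2.58 FPKM in Sh-YAP1 (log2 fold change -2.79, SE 0.12, adjusted p = 0.0018, limma with the Benjamini-Hochberg method). Its known target CCN1 had a log2 fold change of -0.0004 (adjusted p = 0.999), and CCN2 one of -0.21 (adjusted p = 0.13), or -0.096 after quantile normalization. The line's markers VIM (1645 to 2303 FPKM), CD44 (114 to 147) and EGFR (48.5 to 73.5) were present, ESR1 did not exceed 0.07 FPKM and PGR 0.01, while ERBB2 was at 14.3 to 18.1 FPKM. Of the markers of other cell types, CD3E was listed at 0 in all libraries, PTPRC and CDH5 did not exceed 0.04 FPKM and DCN 0.35. PECAM1 was at 0.76 to 1.70, COL1A1 at 3.64 to 8.32 and ALB at 1.25 to 1.79 in 4 libraries and listed at 0 in Sh-YAP1 2 and 3, and the part of these cell types in the results was not tested. The depth of the libraries is unknown, since only FPKM were given.

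The plot of levels shows where the 36 genes lay relative to each other, which FPKM allows because it is scaled to transcript length. RBBP7 was the highest by its mean over the 6 libraries (55.2 FPKM), followed by HJURP (51.7), ZWINT (44.2), CENPN (36.7), SKA2 (33.3) and PMF1 (30.1). RBBP7 and HJURP lay close in this mean. Their order differed between the groups. In Sh-NC HJURP had the higher mean (55.3 FPKM against 50.6 FPKM for RBBP7), and the libraries of the 2 genes overlapped. In Sh-YAP1 RBBP7 lay above HJURP in every library (56.0 to 63.9 FPKM against 46.9 to 49.5 FPKM). The difference between RBBP7 and HJURP was not tested. The lowest by the mean over the 6 libraries were NSL1 (2.53 FPKM), CENPP (2.60), CENPH (3.40) and SKA1 (3.41), whose ranges over these libraries overlapped. The median of the 36 means was 14.4 FPKM and that of all genes tested 7.34 FPKM, and 27 of the 36 lay over 10 FPKM. HJURP was listed above its cargo CENPA in every library, and the ratio of their FPKM was 3.70, 4.27 and 4.38 in Sh-NC and 4.48, 3.78 and 4.07 in Sh-YAP1, and the groups overlapped.

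**Figure D1:**
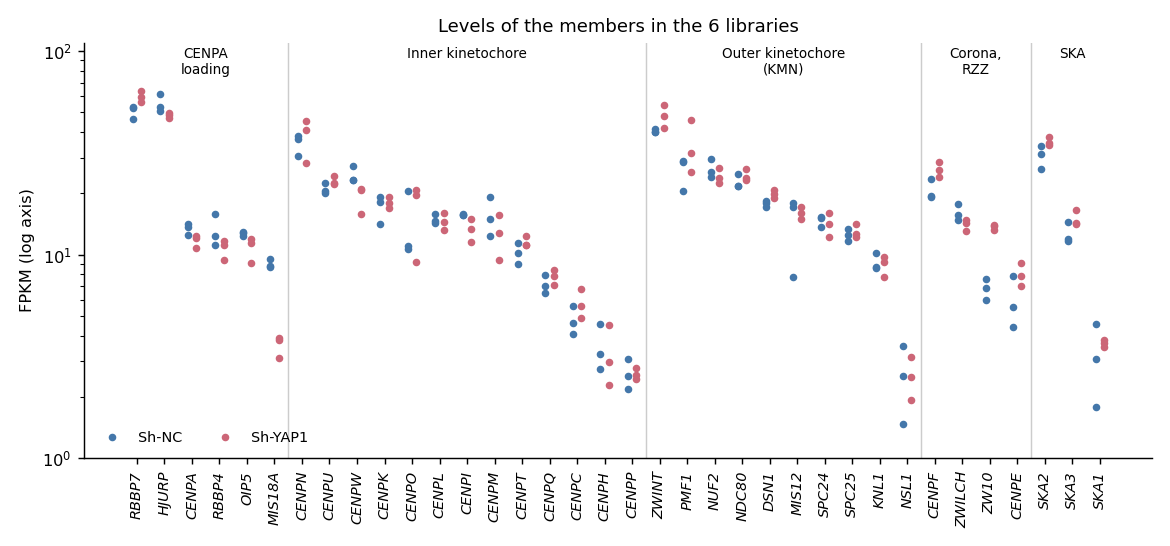
FPKM of the 36 genes in the 6 libraries on a log axis, blue for Sh-NC and red for Sh-YAP1, each point a library, genes grouped by role and ordered by mean level within a role. By the mean over the 6 libraries RBBP7 (55.2 FPKM) is the highest and NSL1 (2.53 FPKM) the lowest. In Sh-NC alone HJURP has the highest mean (55.3 FPKM). MIS18A and ZW10 are the genes with a wide gap between the colours.

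Of the 36 genes 2 passed an adjusted p of 0.05 (limma, Benjamini-Hochberg) and are named called below, which is 5.56%, beside 3.38% of all 14770 genes. The genes called lower were 1 of 36 beside 1.62% of all genes, and those called higher were 1 of 36 beside 1.75%. The libraries of the groups did not overlap for 12 of the 36 (33.3%), beside 29.4% of all genes. In this count 6 genes were lower in Sh-YAP1 (HJURP, CENPA, MIS18A, OIP5, CENPI and CENPW), beside 14.7% of all genes, and 6 were higher (RBBP7, DSN1, ZWINT, ZW10, CENPF and SKA2), beside 14.6%. The shares of the 36 genes are near those of all genes. Their median log2 fold change was 0.085 against -0.0014 for all genes tested, with 22 above 0 and 14 below, and the median size without sign was 0.19 against 0.16. The median was 0.048 without Sh-NC 2, 0.057 without Sh-YAP1 2 and 0.11 without Sh-NC 3. FPKM summed over the 36 genes was 624 ± 36.9 (SD, n = 3) in Sh-NC and 654 ± 8.38 (SD, n = 3) in Sh-YAP1.

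For the 34 genes that were not called, adjusted p lay between 0.148 and 0.975. The 95% interval of the log2 fold change lay within 1 of 0 for 33 of the 34. Over all 36 genes that was 91.7%, beside 92.1% of all genes tested. CENPO, a CCAN subunit, was the exception, with an interval from -0.67 to 1.07. RBBP7, CENPW and CENPF had an unadjusted p under 0.05, and with MIS18A and ZW10 that made 5 of 36 (13.9%), beside 21.9% of all genes.

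**Figure D2:**
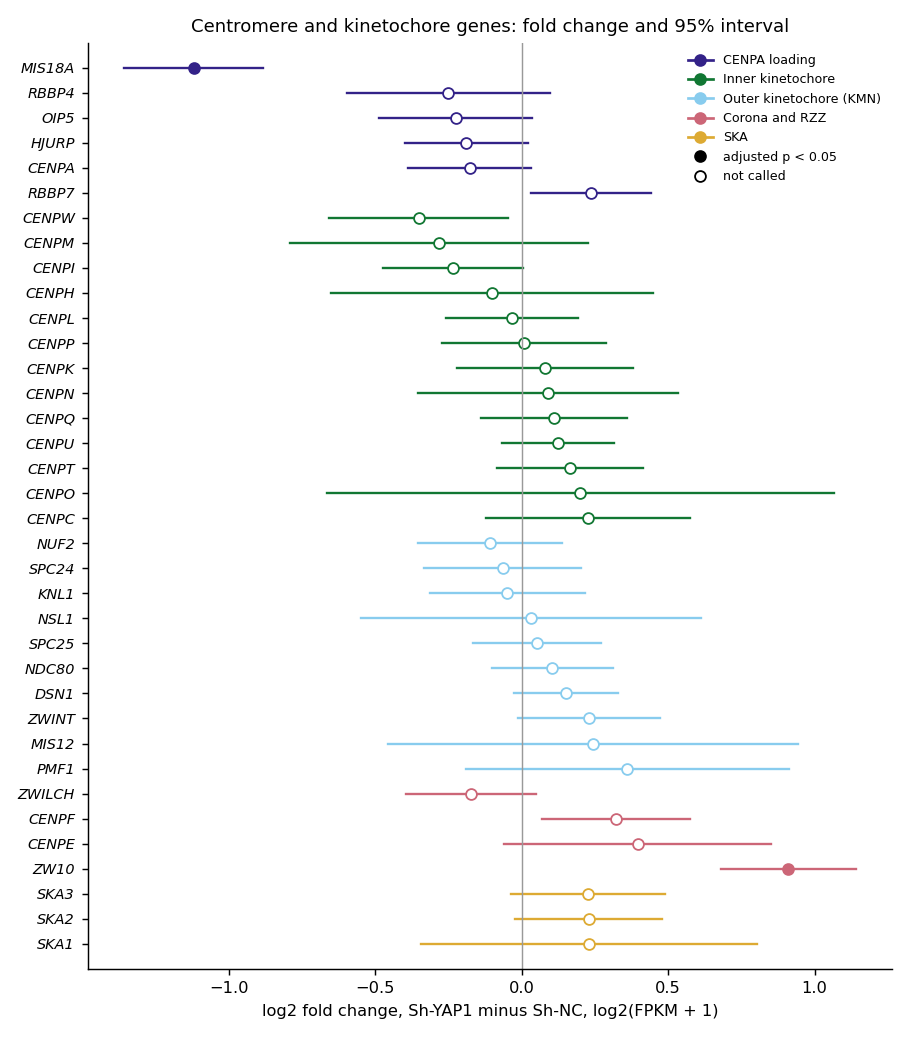
Log2 fold change of Sh-YAP1 minus Sh-NC on the log2(FPKM + 1) scale with its 95% interval from limma for each of the 36 genes, coloured by role, filled where adjusted p was under 0.05. MIS18A (-1.12) and ZW10 (0.91) are filled, and 33 of the 34 other intervals lie within 1 of 0.

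Among the 6 genes of CENPA loading, MIS18A fell, and the groups did not overlap for 4 genes lower in Sh-YAP1 (14.7% of all genes) and for 1 higher, RBBP7 (14.6% of all genes). MIS18A (ENSG00000159055, chromosome 21, 32268219 to 32279069, minus strand, GENCODE 29 on GRCh38) was at 9.48, 8.69 and 8.80 FPKM in Sh-NC and at 3.82, 3.89 and 3.11 FPKM in Sh-YAP1. Every Sh-YAP1 library lay below every Sh-NC library. The means were 8.99 ± 0.428 and 3.61 ± 0.432 FPKM (SD, n = 3), and the log2 fold change was -1.12 (SE 0.10, 95% interval -1.36 to -0.88, adjusted p = 0.0073 from limma). With each library left out in turn the log2 fold change lay between -1.17 and -1.04 and adjusted p between 0.0253 and 0.0421 (limma). In bulk RNA, fewer cells in the phase of the cycle that makes a transcript and less RNA per cell cannot be told apart.

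OIP5, a partner of MIS18A in the Mis18 complex, did not pass the test. It was at 13.0, 12.8 and 12.4 FPKM in Sh-NC and at 9.09, 11.9 and 11.4 FPKM in Sh-YAP1 (log2 fold change -0.23, adjusted p = 0.286, limma). Leaving out a library gave log2 fold changes of OIP5 between -0.30 and -0.12. The Sh-YAP1 libraries lay below those of Sh-NC. Within each library the ratio of MIS18A to OIP5 was 0.729, 0.679 and 0.709 in Sh-NC and 0.420, 0.326 and 0.273 in Sh-YAP1. The groups did not overlap in this ratio. The difference between the partners' fold changes was not tested.

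HJURP (ENSG00000123485, minus strand of chromosome 2 from 233833416 to 233854566), the CENPA chaperone, was at 50.8, 53.4 and 61.7 FPKM in Sh-NC and at 48.3, 46.9 and 49.5 FPKM in Sh-YAP1. The Sh-YAP1 libraries lay below those of Sh-NC, and the spread was wider in Sh-NC. The log2 fold change was -0.19 (SE 0.09, 95% interval -0.40 to 0.02, adjusted p = 0.266, limma). Without Sh-NC 3 it was -0.11 (adjusted p = 0.421, limma). CENPA (ENSG00000115163, plus strand of chromosome 2 from 26764289 to 26801067) was at 13.7, 12.5 and 14.1 FPKM in Sh-NC and at 10.8, 12.4 and 12.1 FPKM in Sh-YAP1. Its highest Sh-YAP1 library lay just below the lowest Sh-NC library, and the log2 fold change was -0.18 (95% interval -0.39 to 0.03, adjusted p = 0.293, limma). For each, p was 0.1 in an exact permutation test (two-sided), the smallest that 3 libraries against 3 allow. RBBP7 was at 53.3, 46.2 and 52.3 FPKM in Sh-NC and at 59.5, 63.9 and 56.0 FPKM in Sh-YAP1 (log2 fold change 0.24, adjusted p = 0.178, limma). Its libraries were higher in Sh-YAP1 without overlap. Its paralogue RBBP4 had a log2 fold change of -0.25 (adjusted p = 0.36, limma) with overlapping groups, and of -0.35 to -0.11 with a library left out. Reads shared by near-identical stretches of the pair could be split between them in ways the FPKM do not show.

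**Figure D3:**
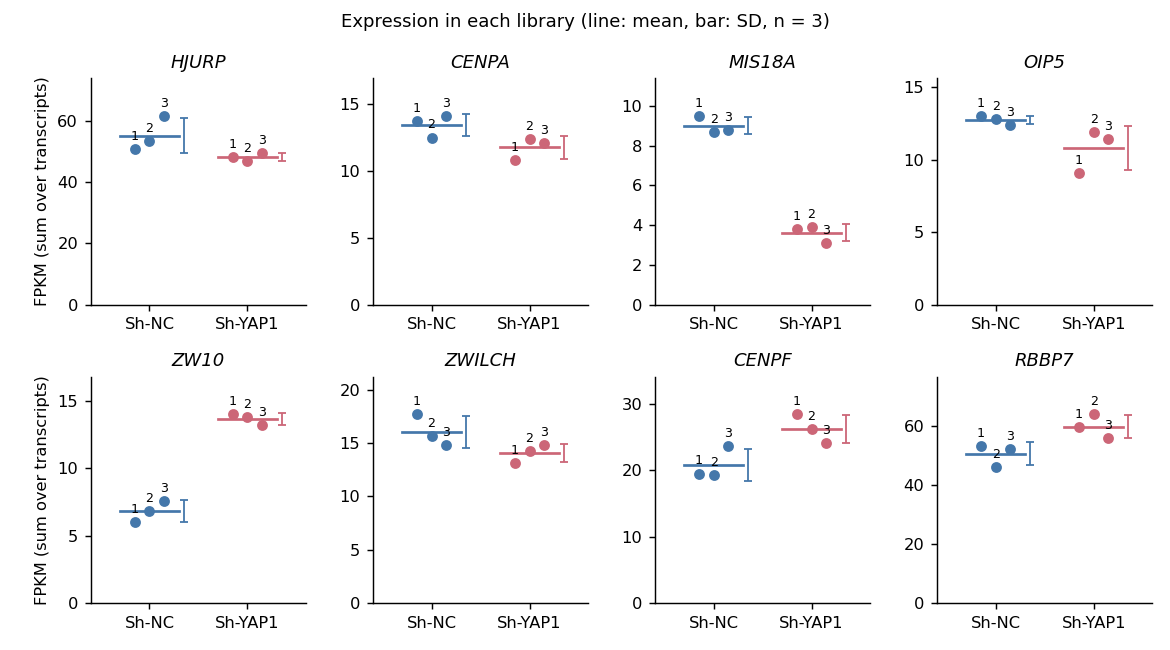
FPKM of HJURP, CENPA, MIS18A, OIP5, ZW10, ZWILCH, CENPF and RBBP7 in each library, blue for Sh-NC and red for Sh-YAP1, points numbered by replicate, with the mean as a line and the SD as a bar (n = 3). MIS18A lies at 8.69 to 9.48 FPKM against 3.11 to 3.89 FPKM, while HJURP and CENPA lie close together in the groups.

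In the inner kinetochore none of the 13 CCAN genes was called at an adjusted p under 0.05 (limma), beside 3.38% of all genes. Of the 13, 1 had an unadjusted p under 0.05 (21.9% of all genes), 2 did not overlap between the groups (29.4% of all genes), and the median log2 fold change was 0.08. CENPW, which forms a histone-fold heterodimer with CENPT, had the lowest log2 fold change of the group: it was at 27.4, 23.4 and 23.2 FPKM in Sh-NC and at 15.9, 20.7 and 21.0 FPKM in Sh-YAP1 (-0.35, 95% interval -0.66 to -0.05, adjusted p = 0.179, limma). Its Sh-YAP1 libraries lay below those of Sh-NC. Its partner CENPT had a log2 fold change of 0.16 (adjusted p = 0.405, limma) with overlapping groups. CENPI, of the CENPH, CENPI and CENPK module, was the other gene without overlap and lower in Sh-YAP1 (log2 fold change -0.24, adjusted p = 0.237, limma). CENPC, the CCAN subunit that binds both CENPA nucleosomes and the MIS12 complex, had the highest log2 fold change, with 4.10, 4.63 and 5.60 FPKM in Sh-NC and with 6.81, 5.60 and 4.88 FPKM in Sh-YAP1 (0.23, adjusted p = 0.414, limma), and its groups overlapped. Leaving out a library gave log2 fold changes of CENPC between 0.12 and 0.33. FPKM summed over the 13 genes was 187 ± 9.36 in Sh-NC and 186 ± 6.95 in Sh-YAP1 (SD, n = 3).

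In the outer kinetochore none of the 10 KMN genes was called at an adjusted p under 0.05 or had an unadjusted p under 0.05 (limma), beside 3.38% and 21.9% of all genes, and the median log2 fold change was 0.08. PMF1, a subunit of the MIS12 complex, was at 28.8, 20.5 and 28.5 FPKM in Sh-NC and at 25.4, 31.5 and 45.7 FPKM in Sh-YAP1 (log2 fold change 0.36, adjusted p = 0.411, limma). Its highest value was in Sh-YAP1 3, without which the log2 fold change was 0.14. It was 0.21 without Sh-NC 2 and 0.55 without Sh-YAP1 1. The groups overlapped. NUF2, a coiled-coil subunit of the NDC80 complex, had the lowest log2 fold change, with 24.2, 25.4 and 29.4 FPKM in Sh-NC and with 22.6, 26.7 and 23.8 FPKM in Sh-YAP1 (-0.11, adjusted p = 0.59, limma), again with overlap. NSL1, another subunit of the MIS12 complex and the lowest of the 36, was at 3.55, 1.48 and 2.55 FPKM in Sh-NC and at 2.51, 1.93 and 3.15 FPKM in Sh-YAP1 (log2 fold change 0.03, adjusted p = 0.957, limma). All 10 KMN genes summed to 187 ± 9.01 FPKM in Sh-NC and to 206 ± 5.55 FPKM in Sh-YAP1 (SD, n = 3). This sum was higher in Sh-YAP1 without overlap and was not tested. The 4 genes of the NDC80 complex summed to 76.4 ± 5.63 FPKM in Sh-NC and to 76.1 ± 3.01 FPKM in Sh-YAP1 (SD, n = 3). The 4 of the MIS12 complex summed to 58.5, 58.0 and 65.2 FPKM in Sh-NC and to 61.8, 69.5 and 86.9 FPKM in Sh-YAP1, and the groups overlapped.

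DSN1 and ZWINT were named after their values were seen, as the 2 of 10 KMN genes whose groups did not overlap, beside 29.4% of all genes. DSN1, of the MIS12 complex, was at 18.4, 18.0 and 17.1 FPKM in Sh-NC and at 18.9, 19.9 and 20.9 FPKM in Sh-YAP1 (log2 fold change 0.15, adjusted p = 0.288, limma). ZWINT, which binds KNL1 and recruits the RZZ complex, was at 41.6, 39.9 and 40.1 FPKM in Sh-NC and at 54.2, 47.8 and 41.9 FPKM in Sh-YAP1 (log2 fold change 0.23, adjusted p = 0.248, limma). Both were higher in Sh-YAP1, with gaps to Sh-NC of less than 1 FPKM.

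Among the 4 genes of the corona and the RZZ complex, ZW10 rose, and the group's median log2 fold change was 0.36. ZW10 (ENSG00000086827, minus strand of chromosome 11 from 113733187 to 113773811) was at 6.02, 6.86 and 7.60 FPKM in Sh-NC and at 14.0, 13.8 and 13.2 FPKM in Sh-YAP1. Every Sh-YAP1 library lay above every Sh-NC library. The means were 6.83 ± 0.791 and 13.7 ± 0.447 FPKM (SD, n = 3), and the log2 fold change was 0.91 (SE 0.10, 95% interval 0.68 to 1.14, adjusted p = 0.0113, limma). The call was lost without Sh-NC 2 (0.92, adjusted p = 0.0522) and without Sh-YAP1 2 (0.90, adjusted p = 0.0549, limma). It also rested on which transcript entries were summed, whose values follow the role groups.

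ZWILCH, another subunit of the RZZ complex, was at 17.7, 15.7 and 14.8 FPKM in Sh-NC and at 13.1, 14.3 and 14.8 FPKM in Sh-YAP1 (log2 fold change -0.17, adjusted p = 0.327, limma). KNTC1, which encodes ROD, had a log2 fold change of 0.26 (adjusted p = 0.416, limma), with overlapping groups. The ratio of ZW10 to ZWILCH was 0.341, 0.436 and 0.515 in Sh-NC and 1.07, 0.962 and 0.887 in Sh-YAP1. That of ZW10 to KNTC1 was 0.281, 0.397 and 0.359 in Sh-NC and 0.501, 0.523 and 0.707 in Sh-YAP1. In Sh-YAP1 1 they rested on a ZW10 entry listed at 0 in all Sh-NC libraries. Without it, a sum chosen after the values were seen that can only lower Sh-YAP1, the Sh-YAP1 ratios were 0.481, 0.824 and 0.887 to ZWILCH and 0.225, 0.448 and 0.707 to KNTC1. Sh-YAP1 2 and 3 stayed above every Sh-NC library, and Sh-YAP1 1 did not. The differences between the subunits' fold changes were not tested.

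CENPE and CENPF were named after their values were seen. CENPF, a large coiled-coil protein of the corona that binds dynein regulators, was at 19.5, 19.3 and 23.6 FPKM in Sh-NC and at 28.4, 26.2 and 24.1 FPKM in Sh-YAP1 (log2 fold change 0.32, adjusted p = 0.148, limma), the lowest adjusted p of the 34 genes that were not called. CENPE, the kinesin that carries chromosomes to the spindle equator, was at 4.43, 5.52 and 7.84 FPKM in Sh-NC and at 9.07, 7.01 and 7.83 FPKM in Sh-YAP1 (log2 fold change 0.40, adjusted p = 0.284, limma). Leaving out a library gave log2 fold changes of CENPE between 0.23 and 0.59. CENPF did not overlap between the groups and CENPE did. The 4 genes of this role summed to 49.6 ± 3.61 FPKM in Sh-NC and to 62.0 ± 2.40 FPKM in Sh-YAP1 (SD, n = 3). These sums did not overlap, hold the full sum of ZW10 and were not tested. The 6 genes of CENPA loading summed to 154 ± 9.87 FPKM in Sh-NC and to 145 ± 3.04 FPKM in Sh-YAP1 (SD, n = 3), with overlap.

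The 3 SKA genes had log2 fold changes of 0.23 each. None was called, beside 3.38% of all genes (adjusted p 0.625 for SKA1, 0.264 for SKA2 and 0.285 for SKA3, limma). SKA1, the subunit with the microtubule-binding domain and the highest log2 fold change of the 3, was at 3.09, 1.79 and 4.57 FPKM in Sh-NC and at 3.52, 3.70 and 3.82 FPKM in Sh-YAP1. The Sh-NC libraries spanned those of Sh-YAP1. SKA3, with the lowest log2 fold change of the 3, was at 12.0, 11.7 and 14.5 FPKM in Sh-NC and at 14.3, 16.5 and 14.2 FPKM in Sh-YAP1, with overlap. SKA2 did not overlap between the groups, and FPKM summed over the complex was 46.5 ± 6.07 in Sh-NC and 54.6 ± 1.40 in Sh-YAP1 (SD, n = 3).

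The 36 genes were listed in 299 transcript entries, without transcript identifiers. HJURP had 9 entries, of which the highest held 95.3% to 98.9% of the gene's FPKM in each library, and MIS18A had 2, of which the highest held 93.3% to 99.7%. The highest entry of MIS18A was at 9.22, 8.51 and 8.68 FPKM in Sh-NC and at 3.68, 3.63 and 3.10 FPKM in Sh-YAP1. Taken alone it gave a log2 fold change of -1.13 (adjusted p = 0.0183, limma), so its difference was carried by a single entry. For 7 of the 36 genes (HJURP, MIS18A, OIP5, CENPQ, NDC80, SPC25 and CENPF) the highest entry held over 80% in every library, and for 18 it held under 50% in some library.

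ZW10 had 3 entries, and the difference in the first Sh-YAP1 library came mainly from another entry than in the rest. Its highest entry was at 5.99, 6.80 and 7.54 FPKM in Sh-NC and at 6.20, 11.42 and 13.03 FPKM in Sh-YAP1. Its second was listed at 0 in all Sh-NC libraries and at 7.72, 1.99 and 0 FPKM in Sh-YAP1. Summed only over entries above 0 in both groups, ZW10 was at 6.02, 6.86 and 7.60 FPKM in Sh-NC and at 6.31, 11.8 and 13.2 FPKM in Sh-YAP1. The groups then overlapped, with a log2 fold change of 0.49 (SE 0.25, adjusted p = 0.324, limma). The highest entry alone gave 0.48 (adjusted p = 0.478, limma). Both of these sums were chosen after the values were seen, and the first can only lower the Sh-YAP1 values of ZW10.

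Entries also exchanged in other genes. The highest DSN1 entry was at 0.00, 0.16 and 10.46 FPKM in Sh-NC and at 11.63, 2.67 and 10.37 FPKM in Sh-YAP1, while the gene's sum stayed between 17.1 and 20.9 FPKM. In CENPO the sums were 11.0, 10.7 and 20.5 FPKM in Sh-NC and at 20.8, 9.17 and 19.6 FPKM in Sh-YAP1, and the highest entry was at 0.71, 0.37 and 14.54 FPKM and at 10.68, 0.56 and 6.76 FPKM. The 3 libraries with a high CENPO sum were those with a high value of that entry, and they came from both groups. Over the 36 genes the median SD within a group on the log2(FPKM + 1) scale was 0.14 for sums and 0.27 for the highest entry, and it was larger for the highest entry in 23 of 36. DSN1 and CENPO are shown here as examples chosen after their values were seen.

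**Figure D4:**
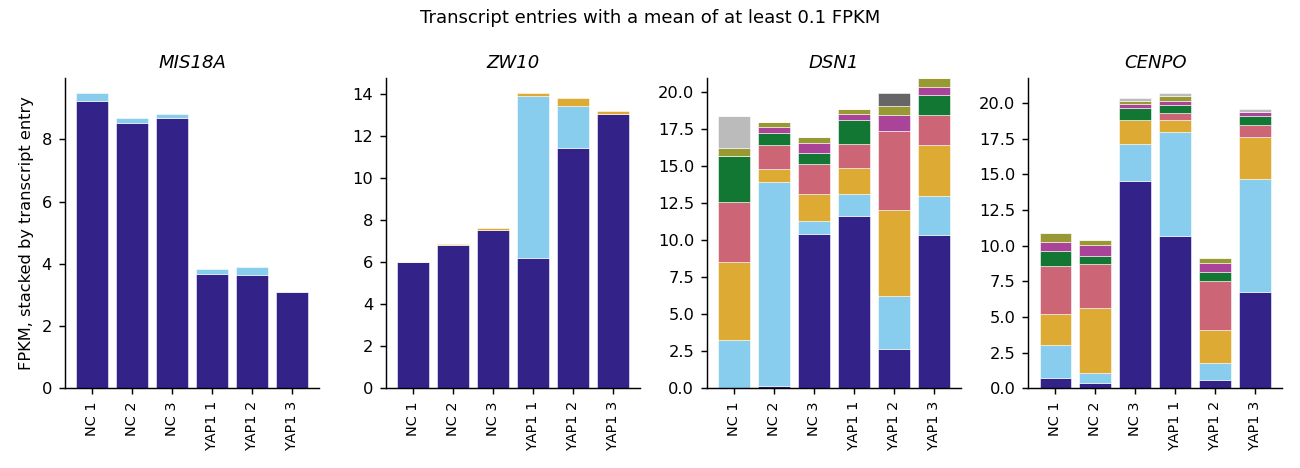
FPKM of MIS18A, ZW10, DSN1 and CENPO in each library (NC for Sh-NC, YAP1 for Sh-YAP1), stacked by transcript entry that averaged 0.1 FPKM or more, a colour for each entry within a gene. MIS18A is nearly all a single entry, ZW10 in Sh-YAP1 1 gains a second entry of 7.72 FPKM, and DSN1 keeps its height while its entries exchange.

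Other annotated genes overlap 23 of the 36, on the same strand for 6, and whether the libraries keep strand is not given in the sources used here. MIS18A-AS1, opposite MIS18A, did not exceed 0.18 FPKM. The 3 genes annotated within ZW10 did not exceed 0.16 FPKM. PMF1 overlaps on the same strand the read-through gene PMF1-BGLAP (means of 8.36 and 6.96 FPKM in Sh-NC and Sh-YAP1), CENPA overlaps SLC35F6 on the same strand (8.42 and 7.61 FPKM), and CENPN overlaps AC092718.4 (14.6 and 14.1 FPKM). The values of PMF1, CENPA and CENPN are uncertain to the extent that reads were split between such pairs.

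Beyond the 36 genes, 32 other centromere, kinetochore and spindle checkpoint genes were read from a list. Of these 4 were called and all 4 fell: CDC20, PLK1, TRIP13 and AURKB, or 4 of 32 beside 1.62% of all genes called lower. CDC20, the activator of the anaphase-promoting complex, was at 119, 117 and 107 FPKM in Sh-NC and at 71.8, 81.5 and 80.6 FPKM in Sh-YAP1 (log2 fold change -0.55, adjusted p = 0.0245, limma). PLK1, the mitotic kinase that licenses CENPA deposition, was at 73.7, 72.0 and 66.3 FPKM in Sh-NC and at 53.3, 47.0 and 52.7 FPKM in Sh-YAP1 (-0.46, adjusted p = 0.035, limma). Both were lower in every Sh-YAP1 library than in any Sh-NC library. AURKB, the kinase of the chromosomal passenger complex, was at 111, 109 and 103 FPKM in Sh-NC and at 77.8, 80.8 and 82.6 FPKM in Sh-YAP1 (-0.42, adjusted p = 0.0268, limma). TRIP13, the ATPase that remodels MAD2, was at 21.3, 23.7 and 22.4 FPKM in Sh-NC and at 15.8, 15.4 and 17.5 FPKM in Sh-YAP1 (-0.44, adjusted p = 0.0424, limma). These too did not overlap between the groups.

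The other 28 genes of the list were not called. In all 12 of the 32 did not overlap (37.5%, beside 29.4% of all genes). Of these 9 were lower in Sh-YAP1 (28.1%, beside 14.7%) and 3 higher (9.38%, beside 14.6%), and the median log2 fold change of the 32 was -0.054. The partners of AURKB, named after their values were seen, lay on both sides: CDCA8 had a log2 fold change of -0.35 (adjusted p = 0.0581, limma), INCENP 0.16 (0.196) and BIRC5 0.27 with overlapping groups. NDE1, a dynein regulator with the lowest log2 fold change of the list, was at 11.2, 22.6 and 23.4 FPKM in Sh-NC and at 11.1, 12.7 and 7.55 FPKM in Sh-YAP1 (-0.77, adjusted p = 0.208, limma). Its first Sh-NC library lay within the range of Sh-YAP1.

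Of 20 cell-cycle reference genes 2 were called, beside 3.38% of all genes, and both fell. CCNB1, the mitotic cyclin, was at 118, 122 and 122 FPKM in Sh-NC and at 84.8, 98.1 and 88.5 FPKM in Sh-YAP1 (-0.41, adjusted p = 0.0385, limma). CCND1, the cyclin of early G1, was at 279, 276 and 272 FPKM in Sh-NC and at 205, 209 and 213 FPKM in Sh-YAP1 (-0.40, adjusted p = 0.023, limma). Neither overlapped between the groups. MKI67, the proliferation marker, was at 31.6, 50.5 and 56.7 FPKM in Sh-NC and at 62.8, 58.5 and 32.3 FPKM in Sh-YAP1 (0.13, adjusted p = 0.848, limma), and the CDK inhibitor CDKN1A had a log2 fold change of -0.13 (adjusted p = 0.357, limma). The median of the 20 was 0.05. The part of the cell cycle in the differences of MIS18A and ZW10 was not tested.

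The calls of these 6 genes rested on all 6 libraries. Whichever library was left out, adjusted p (limma) was above 0.05 for each: it lay between 0.0503 and 0.0950 for CDC20, 0.0672 and 0.124 for PLK1, 0.0847 and 0.133 for TRIP13, 0.0579 and 0.103 for AURKB, 0.0692 and 0.123 for CCNB1, and 0.0529 and 0.0924 for CCND1. The log2 fold changes stayed between -0.60 and -0.49 for CDC20, -0.51 and -0.41 for PLK1, -0.50 and -0.41 for TRIP13, -0.45 and -0.39 for AURKB, -0.47 and -0.37 for CCNB1, and -0.41 and -0.38 for CCND1. Over all genes 80 to 170 were called with a library left out, beside 499 with all.

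**Figure D5:**
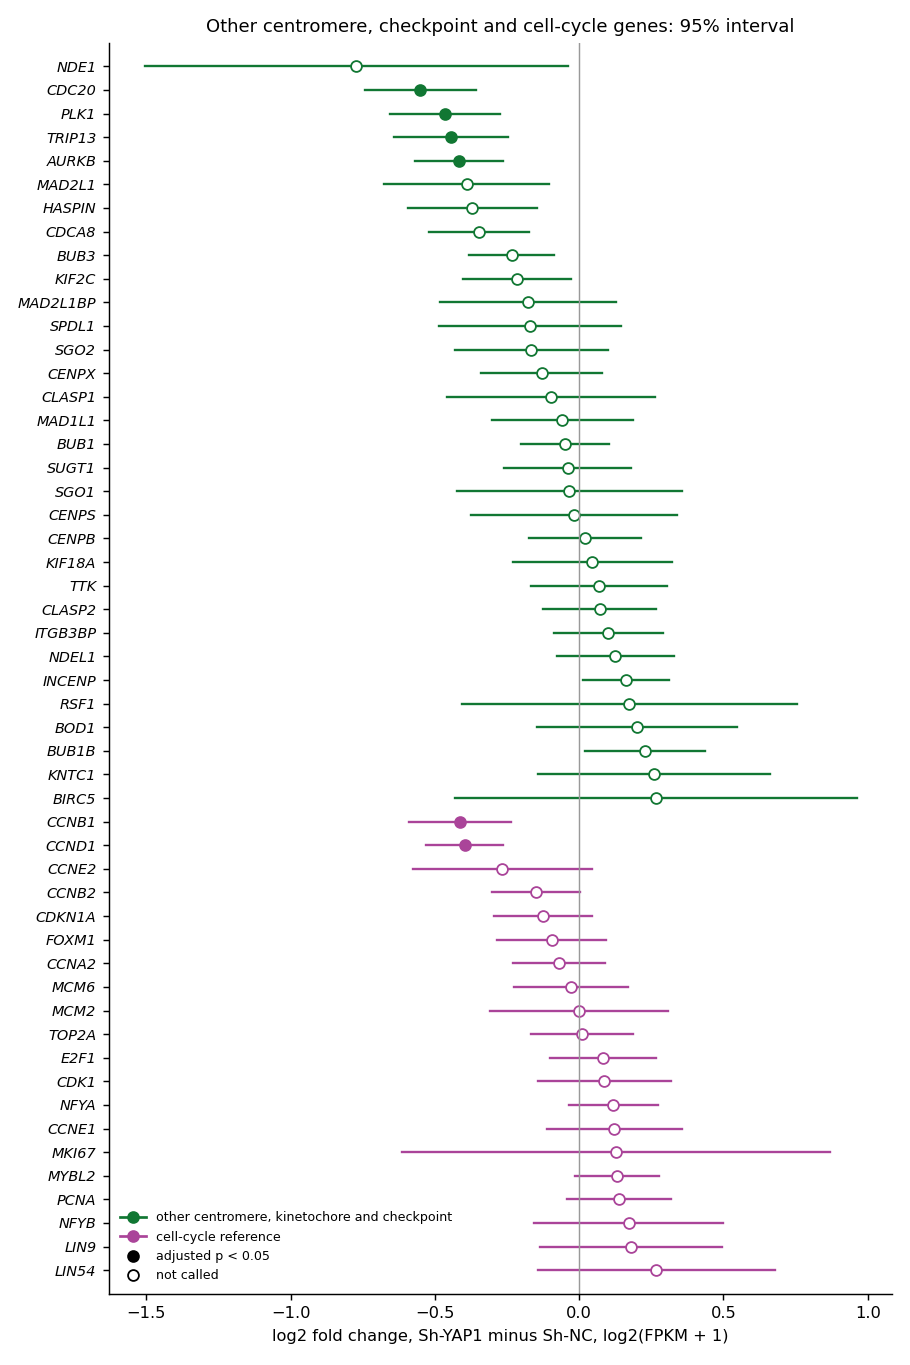
Log2 fold change of Sh-YAP1 minus Sh-NC on the log2(FPKM + 1) scale with its 95% interval from limma for 32 other centromere, kinetochore and checkpoint genes (green) and 20 cell-cycle reference genes (purple), filled where adjusted p was under 0.05. The 4 filled green genes are CDC20, PLK1, TRIP13 and AURKB and the 2 filled purple genes CCNB1 and CCND1, all below 0.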

How the data were processed

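The authors deposited FPKM values of 229420 transcript entries of 60612 genes for each of 6 libraries, with 2 decimals and no counts, positions or transcript identifiers. The submitters' processing notes name HISAT2 2.0, Bowtie 0.12.2 and hg19. The quantification tool and annotation are not given in the sources used here. The depth of the libraries is unknown, since low values showed no steps of whole reads, so no counting interval or floor was computed. FPKM summed to 467493 to 475116 per library.

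Entries were summed by gene identifier, and 60401 identifiers had a symbol. Values were analysed as log2(FPKM + 1), so fold changes of low genes are understated. The 14770 genes that averaged 0.5 FPKM or more were fitted with limma 3.58.1 (mean-variance trend, condition as the only term) in R 4.3.3, with Benjamini-Hochberg adjustment over all of them and a threshold of 0.05. HJURP and CENPA also had an exact permutation test, two-sided. Python 3.11.15, numpy 2.4.6, pandas 2.3.3 and matplotlib 3.10.9 were used for other steps, and the fit was tested on simulated data. Gene positions came from GENCODE 29 on GRCh38, and promoters from RefSeq on GRCh38.p14.

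The genes and lists were chosen with earlier results of these data known. Values in every library are given for HJURP, CENPA, called genes, the extreme fold changes of each role and the highest and lowest gene, and for called genes of the other lists. MKI67 and CDKN1A are always named, and other genes printed with values were chosen after these were seen. Alternatives covered the pseudocount, scaling, filters, the trend, the replicate block, each library left out and the choice of transcript entries. Tools for counts were not used. From the list of other kinetochore genes, 1 gene was left out and is not reported here.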

Additional observations from a re-analysis of the deposited data

How the results depend on the processing

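MIS18A was called in 9 of the 10 alternatives that kept all libraries and in all 6 that left a library out (log2 fold change -1.30 to -1.04), and ZW10 in 7 of 10 and 4 of 6 (0.48 to 1.00). The replicate number did not pair the libraries: after subtracting group means, libraries of the same number correlated at -0.028, 0.062 and 0.004. With the replicate block the adjusted p was 0.0996 for MIS18A and 0.105 for ZW10 (limma, Benjamini-Hochberg), 0 of the 36 genes, 0 of the 32 other genes and 0 of the 20 cell-cycle genes were called, and 1 gene in all (YAP1), with 2779 at an unadjusted p under 0.05 and 2 of the 36. With no filter 232 genes were called, 2 of the 32 and 1 of the 20, and with no mean-variance trend 433 genes, 2 of the 32 and 1 of the 20. With the highest entry alone, added after seeing the data, 96 genes were called, 1 of the 36 (0 higher), 0 of the 32 and 1 of the 20. With entries above 0 in both groups, also added, 350 genes were called, 3 of the 32, 1 of the 36 (0 higher) and 1 of the 20 were called. Of the 10 alternatives that kept all libraries, PLK1, TRIP13 and CCNB1 were called in 5 each, CDC20 and AURKB in 8 and CCND1 in 9. No filter and no mean-variance trend each ended the calls of PLK1, TRIP13 and CCNB1. Quantile normalization also ended the call of PLK1 (adjusted p = 0.0518, limma), and entries above 0 in both groups those of TRIP13 and CCNB1 (0.0520 each). The highest entry alone ended that of YAP1 itself (log2 fold change -1.97, SE 0.91, adjusted p = 0.381, limma). With a library left out 80 to 170 genes were called, 1 to 2 of the 36, 0 to 1 of them higher, and 0 of the 32 and 0 of the 20. No scaling moved the median of all genes by more than 0.018 on the log2 scale.

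Directions turned only for genes that were not called. Quantile normalization gave -0.017 for CENPP and 0.056 for CCN1, and median centring -0.0081 for CENPP. CCN1 was at 0.063 over entries above 0 in both groups. The highest entry alone gave -0.0915 for RBBP7, 0.37 for CENPL, -0.11 for CENPT, 0.67 for NUF2, 0.97 for SPC24, 0.062 for KNL1, 0.0694 for ZWILCH, -0.57 for SKA3 and 0.32 for CCN1. With a library left out, the range crossed 0 for CENPH (-0.31 to 0.0691), CENPN (-0.0434 to 0.29), CENPP (-0.0737 to 0.10), CENPK (-0.0492 to 0.16), CENPL (-0.10 to 0.0312), SPC24 (-0.16 to 0.0292), SPC25 (-0.0095 to 0.10), NSL1 (-0.20 to 0.24), MIS12 (-0.12 to 0.44), KNL1 (-0.11 to 0.0348), SKA1 (-0.0289 to 0.47), MKI67 (-0.12 to 0.42) and CCN1 (-0.0904 to 0.0510). The causes were not tested. Depth is unknown and cannot be weighed as a limit.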
